A study of Mus musculus with 6 samples.

Results

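Cd80, Cd86, Cd40, Cd274, Pdcd1lg2 and Cd72 encode surface proteins with which antigen-presenting cells raise or restrain lymphocyte activation, and they were taken by gene name from all probes of the arrays. They gave 9 of 55681 probes and 6 genes, of which all 6 could be tested among 20715 genes. The samples were glomeruli of male mice aged 4 months from 2 substrains of the recombinant inbred strain BXSB/MpJ, derived from a C57BL/6 female and an SB/Le male. BXSB/MpJ-Yaa males carry the Yaa Y chromosome, onto which a piece of the X chromosome has been duplicated, and develop glomerulonephritis. BXSB/MpJ-Yaa+ males have the wild-type Y and served as controls. Each of the 3 arrays per strain held pooled glomeruli, 2 of the 6 populations of that strain, so that the p-values below describe the spread between pools and not between single mice.

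CD80 and CD86, the B7 proteins, bind CD28 on T cells as a second signal beside the antigen receptor and bind the inhibitory receptor CTLA-4 with higher affinity. CD40 on B cells, macrophages and dendritic cells receives the T cell signal CD40 ligand. PD-L1 (Cd274) and PD-L2 (Pdcd1lg2) engage the inhibitory receptor PD-1. CD72 is a C-type lectin-like coreceptor best known from B cells, whose cytoplasmic tail recruits the phosphatase SHP-1 and whose ligand is the semaphorin Sema4D. In lupus nephritis models these molecules are studied on leukocytes that enter the kidney as well as on resident glomerular cells.

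The 75th percentile of the signal, to which each array was scaled, ran from 235 to 377, highest on Yaa replicate 3, and 50.5% to 59.8% of the spots were well above background. Levels below are log2 signals relative to that percentile, and they are compared between arrays for 1 gene at a time. Sums over marker lists, and the share of 1 gene in a sum, add signals of different probes. They are weighted to bright probes and do not measure relative amounts of RNA. In all samples the source name gave the other strain than title, description and genotype did. Of 12 genes of the duplicated X segment, a list drawn from earlier results of these data, 9 rose on the arrays labelled Yaa. Because of that origin the count is no independent check of the labels. Among the genes that rose, Tlr8 was above background on none of the control arrays and Mid1 on 1. Podocyte, endothelial and mesangial markers were present in both groups, and none of their tested genes passed. The summed podocyte signal was 842 to 888 in controls and 608 to 712 in Yaa samples, the endothelial 463 to 552 and 295 to 437, the mesangial 155 to 168 and 114 to 139, and that of tubule markers 88.4 to 101 and 52.4 to 81.1, so that each was lower without overlap. All arrays shared 1 slide, with controls in one column and Yaa samples in the other, and the effects of column and strain cannot be told apart.

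Across the 6 genes, 3 rose in Yaa glomeruli, none fell and 3 did not pass (limma, adjusted p under 0.05 over all genes tested). Of all tested genes 2.96% rose and 0.850% fell, together 3.81%. Cd86 and Pdcd1lg2 entered the test through the Yaa arrays, being above background on 1 and on none of the control arrays. With a filter for signal on all 6 arrays the count of genes that rose was 1, Cd72. Cd72 rose by 5.27 ± 0.27 on the log2 scale (SE, 3 against 3 arrays), Pdcd1lg2 by 4.20 ± 0.36 and Cd86 by 4.05 ± 0.43. Cd274 stood at 2.68 ± 1.01, Cd80 at 0.74 ± 0.19 and Cd40 at -0.16 ± 0.20. The median over the 6 genes was 3.37, against -0.11 over all genes tested. It was 2.96 with Pdcd1lg2 at the bound given below and 1.78 with normexp background correction, which holds dim signals above zero. The Yaa arrays lay wholly above the controls for 5 of the 6 genes, Cd40 being the other one, and for 7.81% of all genes tested (25.2% in either direction).

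**Figure D1:**
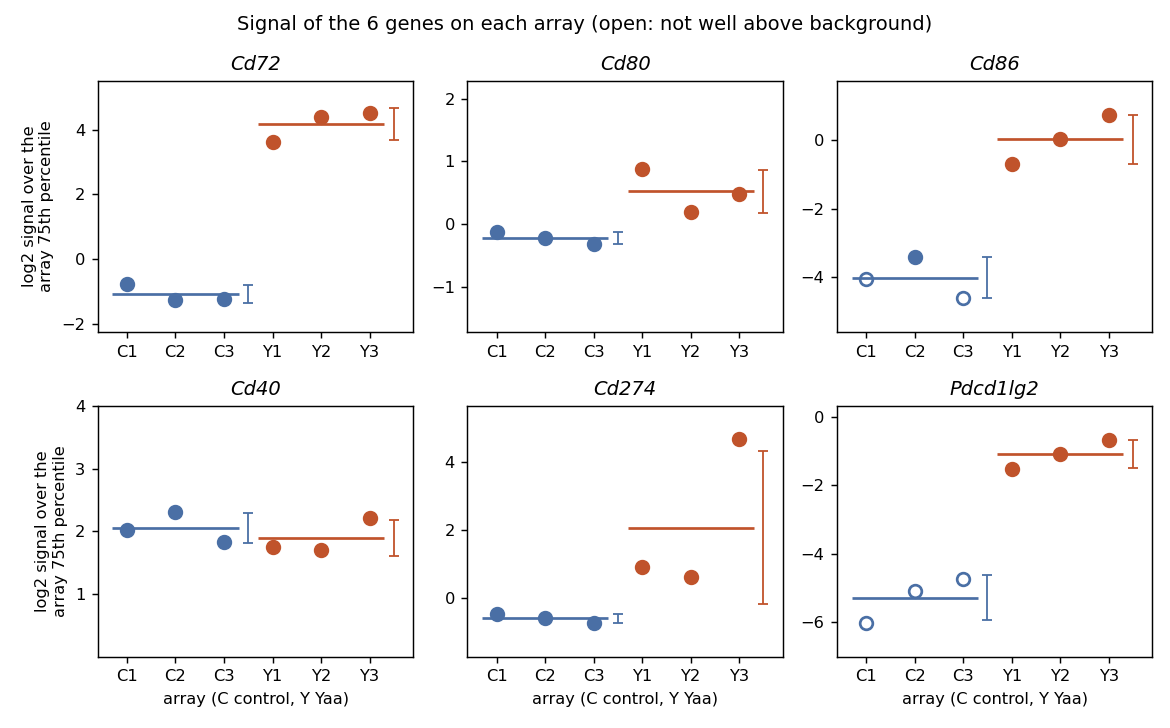
Level of each gene on each array, as log2 signal over the array's 75th percentile, for controls (C1 to C3) and Yaa samples (Y1 to Y3), each panel with its own range. Points are arrays, lines are group means and bars are SD, and open points were not well above background. Cd72, Cd86 and Pdcd1lg2 separate widely, Cd80 by less, Cd40 overlaps, and Cd274 has 1 Yaa array at 4.68 with the other two at 0.62 and 0.92.

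Cd72 showed the widest separation of the 6 genes. Control replicates 1 to 3 had levels of -0.77, -1.26 and -1.24, whereas the Yaa pools in the same order had 3.61, 4.41 and 4.51. The gene was well above background on every array, and the lowest Yaa value exceeded the highest control value by more than the whole range of either group. The difference corresponds to 38.6-fold (95% interval 4.62 to 5.92 on the log2 scale, adjusted p = 3.74e-04), place 14 among the 20715 genes when ranked by fold change. A second Cd72 probe gave 5.31, but the probes share 49 of their 60 bases and so are not independent measurements. They lie on chromosome 4 from 43460596 to 43460655 and from 43460607 to 43460666 on the minus strand of mm9, and an annotation of that build was not used here.

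CD72 is a marker of B cells as well as of macrophages, and these markers were read on the same arrays. None of 8 tested B cell markers passed limma's test. Ms4a1 (CD20) had a log2 fold change of 0.26 ± 0.50 and Cd79a of 0.13 ± 0.43. Single values ran from -0.46 to 0.92. Cd79b (0.92 ± 0.29) was the highest, and its Yaa arrays lay wholly above the controls. The B cell list had a median of 0.03. Its summed scaled signal was 8.13 to 8.84 in controls and 7.60 to 12.8 in Yaa samples. Ebf1 (-0.14 ± 0.17) made up 38.0% to 60.5% of the control sum, and without it the sums were 3.21 to 5.48 and 3.87 to 9.49. Pax5 and Blk were well above background on none of the arrays, and Fcrla on 2 Yaa arrays and no control array. Of 6 tested plasma cell markers 1 rose, with a summed signal of 33.4 to 45.4 in controls and 24.2 to 51.9 in Yaa samples, of which Xbp1, also expressed outside plasma cells, made up 90.5% to 93.4% in controls. Jchain, the joining chain of secreted antibodies, was the one that rose, by 1.87 ± 0.32. Of 16 tested macrophage markers 11 rose, with a median of 3.66 and a summed signal of 166 to 199.6 in controls and 282 to 307 in Yaa samples. C1qa, Fcgr1 and Ms4a7, which rose, and Siglec1, which did not pass, were each above background on 1 control array. These genes entered the test, and so the count and the median, through the Yaa arrays. Itgam made up 74.1% to 77.9% of the control sum, and without it the sums were 42.8 to 44.9 and 146 to 236. Adgre1 (F4/80) rose by 4.65 ± 0.20 and Csf1r, the receptor of the macrophage growth factor CSF1, by 2.13 ± 0.13, while the other 5 did not pass, among them Itgam (-0.50 ± 0.35), Mrc1 (-0.29 ± 0.13) and Mertk (0.15 ± 0.15). Markers named here outside the rule for named genes were picked after their values were seen. The part of the macrophage markers in the rise of Cd72 and the other genes was not tested, and in bulk tissue more cells of a type and more RNA per cell cannot be told apart.

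Among 13144 tested genes with a proper gene symbol, leaving out accessions, clones and predicted genes, the profile of Cd72 over the 6 arrays was nearest to that of Fcgr4, an activating Fc receptor of myeloid cells. Nearness was measured as the root mean square difference between log2 profiles centred on their own means, which was 0.31 for Fcgr4, 0.35 for Adgre1 and 0.44 for Klrb1b, a lectin receptor of natural killer and myeloid cells. Klrb1b was well above background on none of the control arrays, so its control levels are imprecise. Fcgr4 stood at -0.67, -0.64 and -1.52 in the control pools and at 4.19, 4.84 and 4.69 in the Yaa pools, in replicate order. Both Cd72 and Fcgr4 had their lowest Yaa value on replicate 1. Over 6 arrays in 2 groups this measure is led by the size of the group difference.

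The ligand and signalling partners of CD72 were higher in part. Of 10 listed genes 9 were tested. Among these 4 rose, 5 did not pass and none fell, and the median log2 fold change was 0.80. Sema4d, the ligand, rose by 1.80 ± 0.17 (adjusted p = 0.00201), from 0.22, 0.13 and -0.33 on the control arrays to 1.86, 1.79 and 1.75 on the Yaa arrays. Ptpn6, which encodes SHP-1, rose by 2.97 ± 0.24 (adjusted p = 0.00110). It stood between -0.33 and 0.38 in controls and between 2.63 and 3.27 in Yaa samples. The tyrosine kinase genes Btk (2.67 ± 0.25) and Lyn (1.37 ± 0.16) rose as well. The adaptor Blnk was at 0.80 ± 0.17 (adjusted p = 0.0610), the adaptor Grb2 at 0.01 ± 0.15, the plexin genes Plxnb1 and Plxnb2 at -0.01 and -0.07, and the B cell inhibitory receptor Cd22 at -0.17 ± 0.28. Ptpn6, Btk and Lyn are also expressed by macrophages.

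Among the B7 ligands of CD28, Cd86 and Cd80 had log2 fold changes of unequal size. Cd86 stood at -4.06, -3.41 and -4.61 on the control arrays and at -0.69, 0.03 and 0.72 on Yaa replicates 1 to 3. Among the control arrays only replicate 2 detected it well above background, while all 3 Yaa arrays did, and Yaa replicate 3 was its highest. The rise passed the test (adjusted p = 0.00306), but its size of 4.05 rests on control signals that were mostly near background, and with normexp background correction it was 2.16 ± 0.28 on the log2 scale (adjusted p = 0.00447). The single Cd86 probe lies on chromosome 16 from 36603961 to 36604020 on mm9, minus strand. Its nearest profiles were those of Lcp2, the adaptor SLP-76 (0.19), of Gp49a, a leukocyte immunoglobulin-like receptor now named Lilr4b (0.20), and of Smpdl3b, a phosphodiesterase (0.22). None of these 3 was well above background on a control array, so their control levels are as imprecise as that of Cd86.

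Cd80 was measured by 2 probes that do not overlap. The brighter one, on chromosome 16 from 38486772 to 38486831, was well above background on all arrays. The control pools read -0.12, -0.22 and -0.32 and the Yaa pools 0.88, 0.20 and 0.48, in replicate order. The groups did not overlap, Yaa replicate 1 was the highest, and the difference of 0.74 (1.67-fold, 95% interval 0.29 to 1.20) did not pass the adjusted test (adjusted p = 0.106, unadjusted p = 0.00653). With normexp correction it was 0.58 ± 0.16. The other probe, from 38479343 to 38479402 and from base 872 of the transcript, was well above background on Yaa replicates 2 and 3 alone and was therefore not tested. Its sequence, shown because this stretch of Cd80 was near background where the other was bright, is the following.
A_66_P130432: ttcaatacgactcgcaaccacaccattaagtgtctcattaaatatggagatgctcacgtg
It read -5.91, -6.29 and -5.32 in controls and -5.19, -3.61 and -3.93 in Yaa samples, with a surrogate value on control replicate 2, and the order of the Yaa arrays differs from that of the other probe.

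On the RefSeq annotation of GRCm38.p6 Cd86 and Cd80 lie on chromosome 16 with 24 other protein-coding genes starting between them. The nearest profiles to Cd80 were the chemokine gene Cxcl16 (root mean square difference 0.04), Pram1, an adaptor of myeloid cells (0.07), and the histone gene H2ac20 (0.08), which the array names Hist2h2ac. Cxcl16 and Cd80 each had their highest level on Yaa replicate 1, and none of these 3 neighbours passed the test.

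Neither receptor of the B7 proteins gave a difference that passed. Cd28, well above background on all 6 arrays, stood at 0.65 ± 0.68 (log2 fold change, adjusted p = 0.655), with levels of -0.56, -1.99 and -2.48 in controls and -0.93, -2.22 and 0.09 in Yaa samples, so that the groups overlapped. Ctla4 was well above background on 1 Yaa array and no control array, and was not tested. Of 10 tested T cell markers none passed limma's test, and their median log2 fold change was 1.00. The single values ran from 0.13 to 2.01, and for 3 of them, Cd3g, Cd5 and Cd247, the Yaa arrays lay wholly above the controls. Their summed scaled signal was 7.52 to 10.0 in controls and 13.5, 9.54 and 26.1 on Yaa replicates 1 to 3. Cd3e had a log2 fold change of 0.36 ± 0.24, Cd3g of 2.01 ± 0.81 and Cd5 of 1.96 ± 0.73. Dendritic cell markers rose for 4 of 8 tested genes, with a summed signal of 309.9 to 319 in controls and 253 to 378 in Yaa samples. Siglech (-0.22 ± 0.20) alone made up over 98.4% of the control sum, and without it the sums were 4.47 to 4.99 and 19.9 to 37.3. Itgax (CD11c) rose by 4.36 ± 0.26 and Flt3, above background on 1 control array, by 0.97 ± 0.12, while Zbtb46 was at 0.01 ± 0.13.

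Over the wider B7 and CD28 family, 11 of 19 listed genes were tested, of which 2 rose, 9 did not pass and none fell, and the median log2 fold change was 0.46. Havcr2, which encodes the inhibitory receptor TIM-3 of T cells and myeloid cells, rose by 4.14 ± 0.34 (adjusted p = 0.00115). The control pools, none of them well above background, read -4.47, -4.09 and -5.05, against -1.03, -0.06 and -0.09 in the Yaa pools. Against the lowest signal well above background on each control array the bound was 15.2-fold (3.93 on the log2 scale). Normexp correction gave a smaller log2 fold change of 1.78, which lies below that bound. Vsir, the inhibitory B7 relative VISTA, rose by 1.04 ± 0.20 (adjusted p = 0.0388), from a range of 0.25 to 0.58 to a range of 1.11 to 1.78. Its adjusted p was 0.0558 with median centring and 0.148 with no filter on dim probes. Without control replicate 1, 2 or 3 it was 0.162, 0.113 or 0.144, and without Yaa replicate 2 or 3 it was 0.0864 or 0.108. The other costimulatory ligand Icosl was at 0.22 ± 0.19 and its receptor Icos at 0.81 ± 0.66. Lag3, above background on no control array and on 2 Yaa arrays, entered the test and passed without Yaa replicate 1 (adjusted p = 0.0222), with a size set by control signals near background. Btla was tested with all arrays and did not pass, at 0.62 ± 0.54 (adjusted p = 0.603). It passed without Yaa replicate 2, at 1.29 (adjusted p = 0.0438), and that array, at -2.64, lay below every control.

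Cd40 did not separate the groups. The control pools read 2.02, 2.31 and 1.82 and the Yaa pools 1.76, 1.70 and 2.22, all well above background. The highest Yaa value fell within the control range, and the log2 fold change of -0.16 had a 95% interval of -0.63 to 0.31 (adjusted p = 0.703). This interval leaves out a rise of the size of Cd86 or Cd72, and does not show that the level was equal. The probe lies on chromosome 2 from 164897085 to 164897144 on mm9. The nearest profiles were the protease gene Adamts6 (0.08), Insl6, of the insulin and relaxin family (0.11), and Mgl2, a lectin of macrophages (0.11), none of which passed the test.

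Among the genes of CD40 signalling a single one passed the test. Cd40lg, the ligand, was detected well above background on none of the 6 arrays. Of 16 listed genes 14 were tested. Among these 1 rose, 13 did not pass and none fell, and the median log2 fold change was 0.21. Traf1, a signal adaptor induced by NF-kappa B, rose by 2.25 ± 0.21 (adjusted p = 0.00200). Its level went from -0.15, 0.00 and -0.11 on the control arrays to 1.69, 2.34 and 2.44 on the Yaa arrays. Tnfaip3, which encodes the NF-kappa B inhibitor A20, was at 1.80 ± 0.40 (adjusted p = 0.0639). It passed with normexp correction (adjusted p = 0.0463), with the replicate number as a block (0.0180), with an intensity trend and robust variances (0.0438) and without control replicate 3 (0.0221), which at 1.04 lay apart from -0.12 and -0.38 on the other control arrays. The kinase gene Map3k14 (0.75 ± 0.20) and the transcription factor genes Nfkb2 (0.33 ± 0.14) and Relb (0.20 ± 0.15) did not pass.

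**Figure D2:**
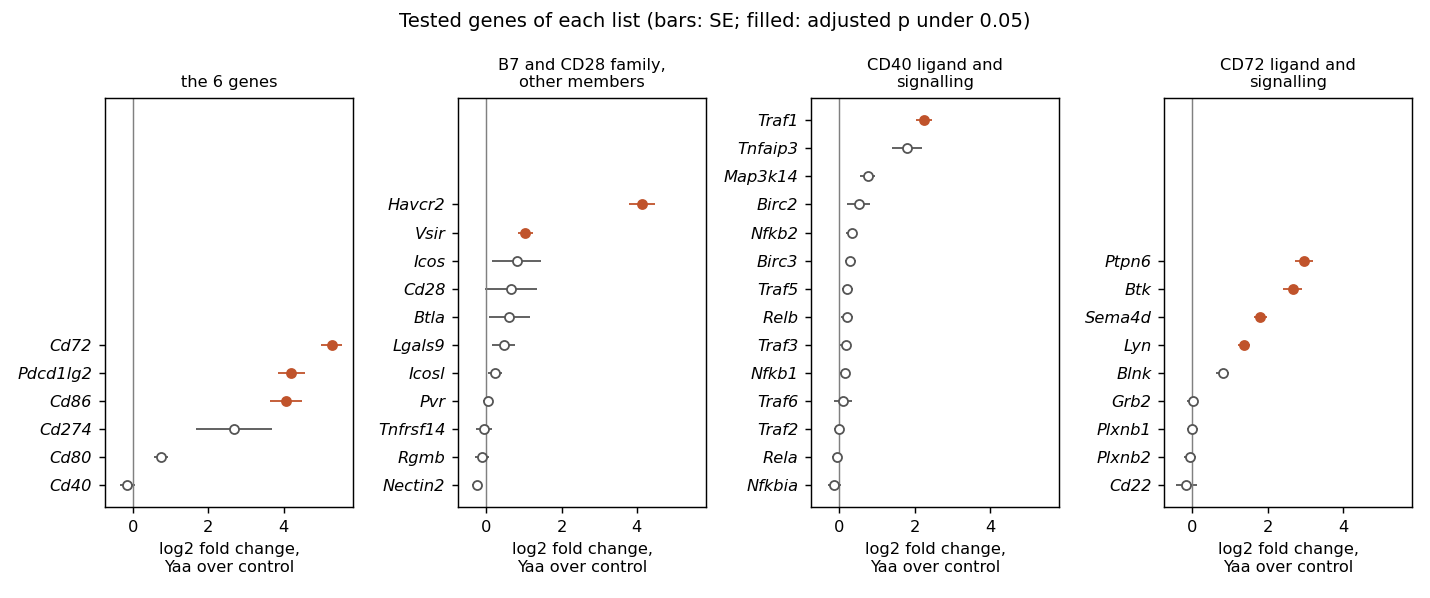
Log2 fold change of Yaa over control with its SE for the 6 genes and for the tested genes of 3 pathway lists, with filled points where the adjusted p was under 0.05. Outside the 6 genes Havcr2, Vsir, Traf1, Ptpn6, Btk, Sema4d and Lyn passed, and most CD40 signalling genes lie near 0.

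The PD-1 ligands differed in how the Yaa arrays lay. Pdcd1lg2 read -6.02, -5.08 and -4.75 in the control pools, none of them well above background, and -1.51, -1.07 and -0.66 in the Yaa pools, all of them above it. The fitted rise of 4.20 (adjusted p = 0.00140) rests on control values near background, and on control replicate 1 the scanner software had put a surrogate value in place of the measured one. Against the lowest signal well above background on each control array the bound was 9.48-fold (3.25 on the log2 scale). Normexp correction gave a smaller log2 fold change, 1.40 ± 0.14 (adjusted p = 0.00117), which lies below that bound. The nearest profiles were C5ar1, the receptor of complement fragment C5a (0.27), the myeloid lectin Clec4a3 (0.32) and Adgre4, a macrophage adhesion receptor (0.33). C5ar1 was well above background on none of the control arrays and Adgre4 on 2 of them.

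Pdcd1lg2 had 2 probes, which cover 57 bases of the same stretch of chromosome 19 (29545470 to 29545529 and 29545473 to 29545532 on mm9) and were designed on different database entries. They differ at 2 bases, C23T and G28A, counted from the first base of the stretches below and with the base of A_55_P2122075 first. The last 30 shared bases are printed, with the differing letters in capitals.
A_55_P2122075: tggaagcatttaagcaacacgtCaagtGcc
A_55_P2187141: tggaagcatttaagcaacacgtTaagtAcc
The log2 fold change was 4.20 on the first and 3.82 on the second, which read -5.81, -5.18 and -4.63 in controls and -2.05, -1.32 and -0.78 in Yaa samples. Neither was well above background on a control array, and their order of the arrays was the same. No member probe shared 20 bases or more with a probe of another gene name.

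Cd274 was above the control range on all Yaa arrays and far above it on 1 of them. The control pools read -0.48, -0.60 and -0.75, Yaa replicates 1 and 2 read 0.92 and 0.62, and Yaa replicate 3 read 4.68. The processed signal was 155 to 172 in controls, 466 and 389 on the first 2 Yaa arrays and 9661 on the third. Yaa replicate 3 thus stood 3.91 above the mean of the other two on the log2 scale, place 12 among all tested genes by this measure, while for Cd86 the same gap was 1.05, for Pdcd1lg2 0.62, for Cd72 0.50, for Cd40 0.49 and for Cd80 -0.06. With all arrays the difference of 2.68 had a 95% interval of 0.29 to 5.07 and did not pass (adjusted p = 0.256, unadjusted p = 0.0330). Without Yaa replicate 3 it was 1.38 ± 0.16 and passed (adjusted p = 0.0104), which brought the count of the 6 genes that rose from 3 to 4. The spot carried no outlier flag and was not saturated, and the gene has 1 probe, on chromosome 19 from 29462363 to 29462422.

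The genes with profiles nearest to Cd274 are known interferon targets. The root mean square difference was 0.16 for Gbp3, a guanylate-binding GTPase, 0.25 for Tap1, the peptide transporter of class I antigen presentation, and 0.28 for Gbp2b (named Gbp1 on the array). Gbp3 read 2.49 and 2.57 on Yaa replicates 1 and 2 and 6.17 on Yaa replicate 3, against 0.93 to 1.39 in controls. Tap1 read -2.06, -1.98 and 1.51 in the same order, against -3.22 to -3.16 in controls. None of these 3 passed the test over all arrays, and without Yaa replicate 3 Gbp3 (1.36, adjusted p = 0.0146) and Tap1 (1.18, adjusted p = 0.00718) did. Yaa replicate 3 also had the highest summed T cell marker signal, 26.1 against 9.54 and 13.5, and the part of those cells in the Cd274 level was not tested.

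**Figure D3:**
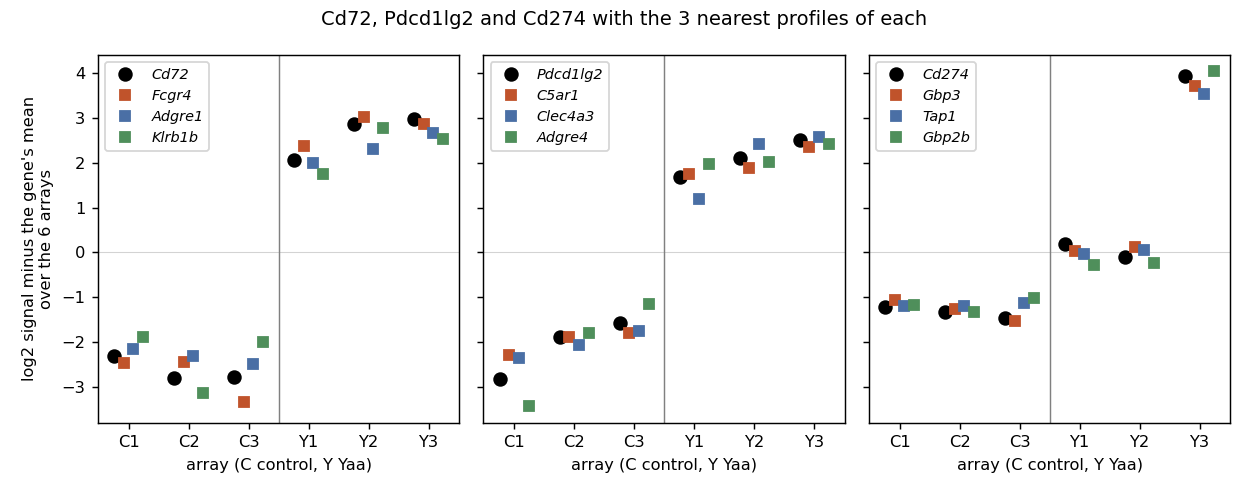
Log2 signal of Cd72, Pdcd1lg2 and Cd274 and of the 3 genes with the nearest profiles to each, centred on each gene's mean over the 6 arrays. Points are single arrays, spread sideways for legibility. Cd72 and Pdcd1lg2 with their neighbours separate the groups on every array, and the Cd274 group is highest on Yaa replicate 3 (Y3).

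Pdcd1, which encodes PD-1, was well above background on 2 Yaa arrays and no control array and was not tested. Cd274 and Pdcd1lg2 lie next to each other on chromosome 19, with no other protein-coding gene starting between them on GRCm38.p6, on the same strand.

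RefSeq promoter sequences were at hand for 4 of the 6 genes, Cd72, Cd80, Cd274 and Pdcd1lg2. The 250 bases before the start site were searched on both strands for the core motif of the myeloid and B cell factor PU.1 (GAGGAA), an interferon-stimulated response element (a pair of GAAA blocks with 2 bases between them), a gamma-activated site (TTCNNNGAA) and a kappa B site (GGG and TTTCC with 2 bases between them). Such windows held the PU.1 core in 23.3% of all 32851 promoters of the table, the response element in 2.98%, the gamma-activated site in 7.02% and the kappa B site in 1.41%. The PU.1 core was found once in Cd72 and once in Pdcd1lg2, both on the reverse strand, beginning 47 and 82 bases before the start site, and no motif matched in Cd80 or Cd274. These 3 windows are shown because their genes had the widest Yaa differences among those with a sequence, with matches in capitals.
Cd72, chr4:43454627-43454876, minus strand, GRCm38.p6: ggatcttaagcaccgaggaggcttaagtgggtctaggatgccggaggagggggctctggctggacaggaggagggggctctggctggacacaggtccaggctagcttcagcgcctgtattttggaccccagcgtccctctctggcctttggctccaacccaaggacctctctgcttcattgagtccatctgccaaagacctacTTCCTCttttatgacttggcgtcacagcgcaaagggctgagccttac
Pdcd1lg2, chr19:29410669-29410918, plus strand, GRCm38.p6: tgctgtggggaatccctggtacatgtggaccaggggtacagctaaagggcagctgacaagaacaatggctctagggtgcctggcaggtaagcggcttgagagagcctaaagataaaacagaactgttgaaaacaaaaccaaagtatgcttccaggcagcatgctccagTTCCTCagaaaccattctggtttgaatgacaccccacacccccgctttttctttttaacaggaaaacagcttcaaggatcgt
Cd274, chr19:29367188-29367437, plus strand, GRCm38.p6: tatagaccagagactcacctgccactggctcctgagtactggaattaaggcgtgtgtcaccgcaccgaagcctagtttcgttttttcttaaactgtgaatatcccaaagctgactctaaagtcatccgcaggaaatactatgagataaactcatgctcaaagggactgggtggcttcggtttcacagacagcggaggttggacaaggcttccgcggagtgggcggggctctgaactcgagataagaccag
A match is a description of these letters, and the absence of one in the Cd274 window says nothing of interferon factors elsewhere at the gene.

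**Figure D4:**
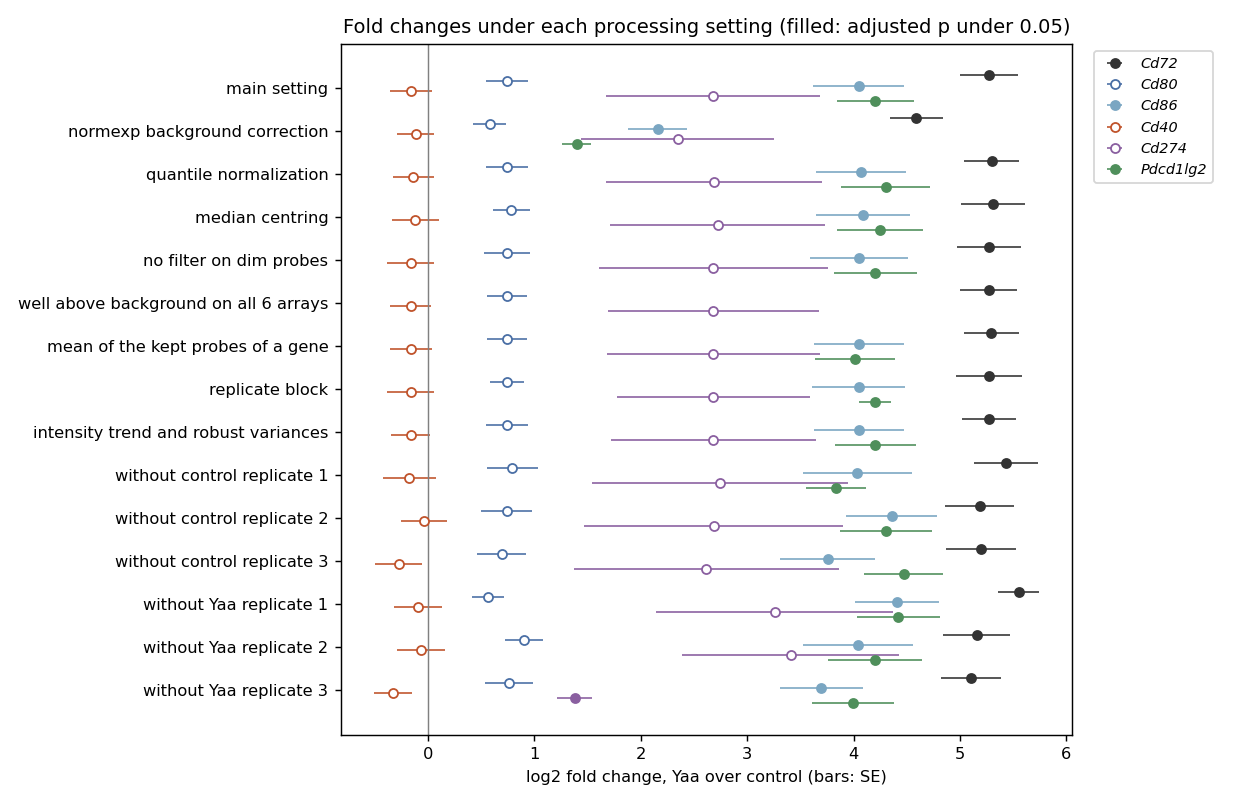
Log2 fold change of each gene under the main setting and each alternative, with SE, filled where the adjusted p was under 0.05. Cd72, Cd86 and Pdcd1lg2 are filled wherever they were tested, normexp correction moves Cd86 to 2.16 and Pdcd1lg2 to 1.40, and Cd274 is filled once, without Yaa replicate 3.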

How the data were processed

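Total RNA of pooled glomeruli was labelled with Cy3 and hybridised to 1-colour Agilent arrays, 1 per pool, per the labels' protocols. The deposited files hold linear signal intensity per spot from Agilent Feature Extraction, version 10.7.3.1 per the file headers and 9.5.3 per the submitters' processing notes. The processed intensity was background-subtracted and detrended by the authors' software within each array, with surrogates for dim spots, so that low values are imprecise. Well-above-background and outlier flags, of no fixed unit, were deposited beside it. Positions of probes refer to mm9, which the headers name.

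Titles gave the groups. Outlier spots (121 to 166 per array) and 3671 control spots were left out, log2 was taken, spots of 1 probe were averaged and the 75th percentile over probes was subtracted. A probe was kept if well above background on all 3 arrays of a group (28594 probes), and a gene was read from its brightest kept probe. A bound sets the bright group's mean against, per dim array, the higher of the probe's signal and the lowest signal well above background, as means of log2 values. The strains were tested against each other, two-sided, in limma 3.58.1 (R 4.3.3), whose moderated variances rest on 4 degrees of freedom from the arrays and 2.84 from the prior. P-values of 20715 genes were adjusted by Benjamini-Hochberg and called under 0.05. The fit was tested on simulated data. No spot was saturated. The number of arrays limits the precision.

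Replicate numbers 1 to 3 recur in both strains. Deviations from group means correlated at 0.13 to 0.22 for same-numbered arrays and at -0.19 to 0.03 for others. The replicate number was also the row on the slide in both strains, so pairing of samples and position on the slide cannot be told apart. The main fit left the replicate number out. A replicate block was an alternative beside normexp correction (offset 50) and quantile and median normalization. Further alternatives were other probe filters and rules, another variance model and leaving out each array. The genes, the marker and pathway lists and the rule for named genes (passing list genes, direct ligands and receptors, defining markers and 3 nearest profiles) were chosen with earlier results of these data known. Syk had no probe under this name, and the single values of some marker genes are not reported here.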

Additional observations from a re-analysis of the deposited data

How the results depend on the processing

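Cd72 stayed past the test in all 14 alternatives, with log2 fold changes from 4.59 to 5.55, and Cd86 (2.16 to 4.41) and Pdcd1lg2 (1.40 to 4.47) in the 13 that kept them. Cd40 (-0.32 to -0.03) and Cd80 (0.56 to 0.90) did not pass in any. The replicate block gave adjusted p-values of 0.00586, 0.0227 and 0.00551 for Cd72, Cd86 and Pdcd1lg2 and changed no call of the 6 genes. Cd274 ran from 1.38 to 3.41 over the arrays left out and passed only without Yaa replicate 3. The count of the 6 genes that rose was 1 with a filter for signal above background on all 6 arrays, which leaves out Cd86 and Pdcd1lg2, and 3 to 4 with an array left out. Of the wider B7 and CD28 family 1 gene rose with median centring, with no filter and with the strictest filter, and 1 to 3 with an array left out. Of the CD40 genes 2 rose with normexp correction, the replicate block and the intensity trend, and 1 to 2 with an array left out. The count of 4 CD72 partners was 4 to 5 throughout. Over all genes 614 rose and 176 fell, against 375 and 21 with no filter, 520 and 98 with the replicate block, and 362 to 706 and 31 to 321 with an array left out. With no filter 94.7% of called genes were higher, against 77.7% in the main setting and 68.7% to 92.5% with an array left out. Dim control signals limit Cd86 and Pdcd1lg2, and a single probe limits Cd274, Cd86 and Cd40.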

Other observations

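Genes that interferon gamma is known to induce were highest on the array with the high Cd274. The 14 genes were chosen after their values were seen, so they are described and not tested as a list. Of them 12 were tested as single genes, and all 12 had their highest level on Yaa replicate 3. The chemokine gene Cxcl9 stood there 4.54 above the mean of the other Yaa arrays on the log2 scale, Cxcl10 4.10, the GTPase genes Gbp2 and Gbp4 4.03 and 4.02, and the immunoproteasome genes Psmb8 and Psmb9 2.45 and 2.21. The feedback inhibitor Socs1 followed with 2.62, the transcription factor gene Irf1 with 1.90 and Ciita, the class II transactivator, with 1.12, beside a median of -0.06 over all tested genes. Ifng itself was well above background on 1 control array and 2 Yaa arrays and was not tested, and Ido1 was above it on none.

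Of the 12 genes, Ciita was the one that passed with all arrays (1.86 ± 0.36, adjusted p = 0.0395). Ciita was well above background on 1 control array. With or without Yaa replicate 3 it entered the test through the Yaa arrays, and its control levels are imprecise. Without Yaa replicate 3, Cxcl9 (1.85, adjusted p = 0.00218), Cxcl10 (2.26, adjusted p = 0.00942), Gbp3, Tap1 and Ciita (1.49, adjusted p = 0.0407) passed, while the other 7 did not, among them Socs1 (0.34, adjusted p = 0.522). These adjusted p-values are limma's over all genes tested.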
